A study of Clytia hemisphaerica and Astroides calycularis and Pocillopora acuta with 16 samples.

Results

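Homeobox genes that mark the aboral end of the cnidarian planula were followed in larvae of 3 species. The 8 gene models were Six3/6 of Clytia, Astroides and Pocillopora (XLOC_010764, STRG.44164 and XP_027043093), an aboral homeodomain gene of the same 3 species (XLOC_038055, STRG.4567 and XP_027046345), Nk2d of Clytia (XLOC_043740) and ISX-like of Pocillopora (XP_027046639). They were taken by identifier, and all 8 were found among the 67007 gene models of the series, which comprised 18755 in Clytia, 28330 in Astroides and 19922 in Pocillopora. The aboral homeodomain gene is called so here because the study's text names Hox9-14C among its shared aboral genes without an identifier, while its lists give these models only a homeodomain. The shared name does not make the 3 models orthologs. The lists pair STRG.4567 with XLOC_038055 and with XP_027046345. They pair XP_027046345 with another Clytia model, MSTRG.15163, which was higher in oral ends.

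Total RNA of bisected planulae was sequenced in 16 libraries that fell into 8 groups of 2. Clytia hemisphaerica, a hydrozoan jellyfish kept as a laboratory strain, and Astroides calycularis, a brooding coral whose larvae came from colonies collected in the wild, each had aboral ends, oral ends and uncut larvae. Pocillopora acuta, a brooding coral kept in an aquarium, had aboral and oral ends only, and its replicates came from the parent colonies C3 and C5, described by the study as phenotypes of the same genotype. All larvae were untreated and without genetic change, and each library was a pool of cut ends or whole larvae, large in Clytia and of only a few ends in Pocillopora. The larvae of Pocillopora carry dinoflagellate symbionts, and their reads were mapped by the authors to the genome of the related Pocillopora damicornis.

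Homeobox genes encode transcription factors that bind DNA through a homeodomain and set the identity of body regions and cell types. Six3/6 belongs to the sine oculis family and patterns the anterior end of bilaterian embryos, including the forebrain. In the sea anemone Nematostella it is expressed in and required for the aboral domain, whose tip forms the ciliated apical organ. Genes of the NK2 class act in the patterning of the nervous system and other organs in bilaterians. ISX-like, a homeobox gene of the paired-like group, is expressed in the apical organ of Nematostella.

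Clytia libraries held 30129270 to 31043438 counts, Astroides libraries 23146999 to 26980344 counts, and Pocillopora libraries 20256336 to 24838448 counts. The ends were checked with 4 aboral and 4 oral axis genes per species that are none of the 8 genes. All 4 aboral axis genes (Dickkopf, FoxQ2a, FGFa1 and a Frizzled receptor) were higher in aboral than in oral ends in each species, and all 4 oral axis genes, among them a Wnt ligand and a T-box gene, were lower. The study called these genes on the same libraries, so that their direction is a check of labels and not independent evidence.

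All 8 genes were higher in aboral than in oral ends. The calls were 3 of 3 in Clytia, 2 of 2 in Astroides and 3 of 3 in Pocillopora at a Benjamini-Hochberg adjusted p under 0.05 from edgeR's quasi-likelihood test over all genes of the species. The share of all tested genes called higher aborally was 18.4% in Clytia (2876 of 15599), 3.47% in Astroides (738 of 21254) and 3.82% in Pocillopora (656 of 17164). In Astroides this number was 1312 genes with the replicate number as a block. It was 414 and 289 without aboral replicate 1 and 2, and 450 and 428 without oral replicate 1 and 2, with both Astroides genes called each time. Both aboral libraries lay above both oral libraries for all 8 genes, as they did for 33.4% of the tested Clytia genes, 23.6% of those of Astroides and 19.8% of those of Pocillopora. All but ISX-like of Pocillopora stand in the study's lists of aboral genes, which were drawn from these libraries, so that their direction is not independent evidence. In these bulk pools, fewer cells of a type and less RNA per cell cannot be told apart. Values are CPM, that is, counts brought to one library size after TMM scaling and not divided by gene length, so that they are compared between libraries and not between genes.

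**Figure D1:**
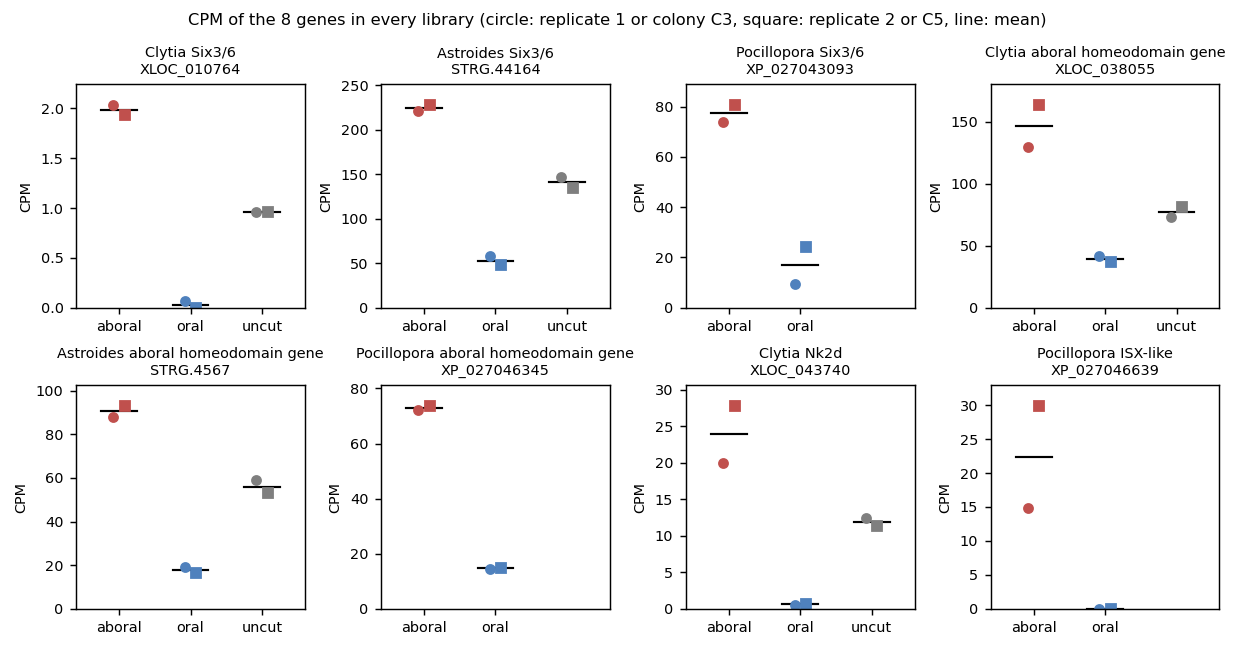
CPM of the 8 genes in every library, with 1 panel per gene, aboral, oral and uncut groups from left to right, circles for replicate 1 or colony C3, squares for replicate 2 or colony C5, and a line at the group mean; each vertical axis starts at 0. In all 8 panels both aboral libraries lie above both oral libraries, and uncut larvae, measured in Clytia and Astroides, lie between the ends.

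Six3/6 was the most thinly counted of the genes in Clytia and was almost without counts at the oral end. XLOC_010764 had 62 and 57 counts (2.04 and 1.93 CPM) in aboral ends, 2 and 0 counts (0.0637 and 0 CPM) in oral ends, and 30 and 29 counts (0.962 and 0.961 CPM) in uncut larvae. The groups did not overlap, and the 2 uncut libraries lay close together between the ends. Over both replicates the aboral level was 62.4 times the oral one, with a 95% counting interval of 16.9 to 521, and the test gave an adjusted p of 0.000106. This interval and those below cover the counting error of reads only, and not variation between larvae, cuts or pools. Reads were not tied to single molecules, so that duplicate reads count as separate ones and the intervals may be too narrow. A library of this depth with 0 counts allows an oral level of up to 0.0951 CPM.

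In the corals Six3/6 was well counted at both ends. STRG.44164 of Astroides had 221.5 and 228.2 CPM in aboral ends, 57.9 and 48.2 CPM in oral ends, and 147.3 and 134.4 CPM in uncut larvae. The 3 groups stood apart, and oral ends retained clear expression. Means were 224.8 ± 4.72 CPM in aboral and 53.1 ± 6.85 CPM in oral ends (SD, n = 2 each), and the log2 fold change was 2.08 ± 0.145 (SE, adjusted p = 0.000544).

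XP_027043093 of Pocillopora had 73.8 CPM (C3) and 80.7 CPM (C5) in aboral ends, against 9.51 CPM (C3) and 24.3 CPM (C5) in oral ends. The aboral libraries of the colonies were alike, while the oral library of C5 was well above that of C3. The log2 fold change was 2.32 ± 0.313 (SE, adjusted p = 0.0225). Within colony C3 the aboral level was 7.76 times the oral one (counting interval 6.67 to 9.09), and within C5 it was 3.32 times (3.02 to 3.65). These intervals do not overlap, but they cover only the counting error of reads. The difference between colonies in the change between ends was not tested, since each end of each colony had 1 library. Of the Pocillopora libraries, the study pooled the fewest cut ends for the oral library of replicate 1, taken here as C3. Colony and pool of cut ends therefore cannot be told apart in this contrast.

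The aboral change of Six3/6 was compared across species with an edgeR test of the interaction between species and end, fitted on genes that the study's lists pair 1 to 1. It differed between Clytia and Astroides (adjusted p = 0.0041), with the larger change in Clytia. The same held between Clytia and Pocillopora (adjusted p = 0.0461), but not with the replicate block (adjusted p = 0.0913). Both rest on the 2 oral counts of Clytia, and for that reason no difference in fold change is given. Clytia larvae were also smaller than coral larvae and were cut with other tools. Species and dissection therefore cannot be told apart in this or the other tests of Clytia against a coral. Between Astroides and Pocillopora the log2 difference was -0.25 ± 0.463 (SE, adjusted p = 0.669), and the error of this difference leaves room for unequal changes. The pairs came from genes that the study listed at an end or as cell type markers in at least one species, and calls over all pairs were frequent. A larger change in Clytia was called in 12.9% and a smaller one in 8.27% of 1137 pairs against Astroides, and a larger one in 15.5% of 1150 pairs against Pocillopora. Between the corals, 33.3% of 300 pairs were called larger and 23% smaller in Astroides.

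Each of the 3 models called the aboral homeodomain gene was higher aborally in its species, with log2 fold changes between 1.90 and 2.35. XLOC_038055 of Clytia had 129.4 and 163.9 CPM in aboral ends, 41.5 and 37.1 CPM in oral ends, and 73.3 and 81.3 CPM in uncut larvae. The aboral libraries differed from each other by more than the libraries of either other group, yet no groups overlapped. The log2 fold change of aboral over oral ends was 1.90 ± 0.128 (SE, adjusted p = 1.87e-05).

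STRG.4567 of Astroides had 88.0 and 93.1 CPM in aboral ends, 19.2 and 16.4 CPM in oral ends, and 58.87 and 53.05 CPM in uncut larvae. Each group was tight, with the oral libraries the lowest, and the log2 fold change was 2.35 ± 0.141 (SE, adjusted p = 0.000346). XP_027046345 of Pocillopora had 72.0 CPM (C3) and 73.7 CPM (C5) in aboral ends, against 14.5 CPM (C3) and 14.8 CPM (C5) in oral ends. The colonies gave nearly the same values at each end, and the log2 fold change was 2.31 ± 0.138 (SE, adjusted p = 0.00502). The aboral level was 4.96 times the oral one in C3 (counting interval 4.37 to 5.64) and 4.97 times in C5 (4.42 to 5.60), unlike the spread of Six3/6 between these colonies.

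Between Clytia and Astroides the log2 fold changes of the aboral homeodomain gene differed by -0.45 ± 0.219 (SE, adjusted p = 0.187), a difference that passed the threshold with the replicate block (adjusted p = 0.0443). Between Astroides and Pocillopora they differed by 0.04 ± 0.368 (SE, adjusted p = 0.948). The study's lists pair the Clytia gene with STRG.4567 and with no Pocillopora model, so that XLOC_038055 and XP_027046345 were not tested against each other.

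The Clytia model that the lists do pair with XP_027046345, the homeodomain gene MSTRG.15163, ran the other way. It had 5 and 15 counts (0.164 and 0.508 CPM) in aboral ends, 67 and 56 counts (2.13 and 1.77 CPM) in oral ends, and 36 and 33 counts (1.15 and 1.09 CPM) in uncut larvae. The gene was low throughout and fell in aboral ends, where the log2 fold change was -2.54 ± 0.40 (SE, adjusted p = 0.00184). Its change differed from that of XP_027046345 by -4.85 ± 0.385 (SE, adjusted p = 0.00014), a call made in the same direction for 31% of the 1150 pairs. Whether XLOC_038055 or MSTRG.15163 is the counterpart of the Pocillopora gene was not tested, since no sequences were used here.

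**Figure D2:**
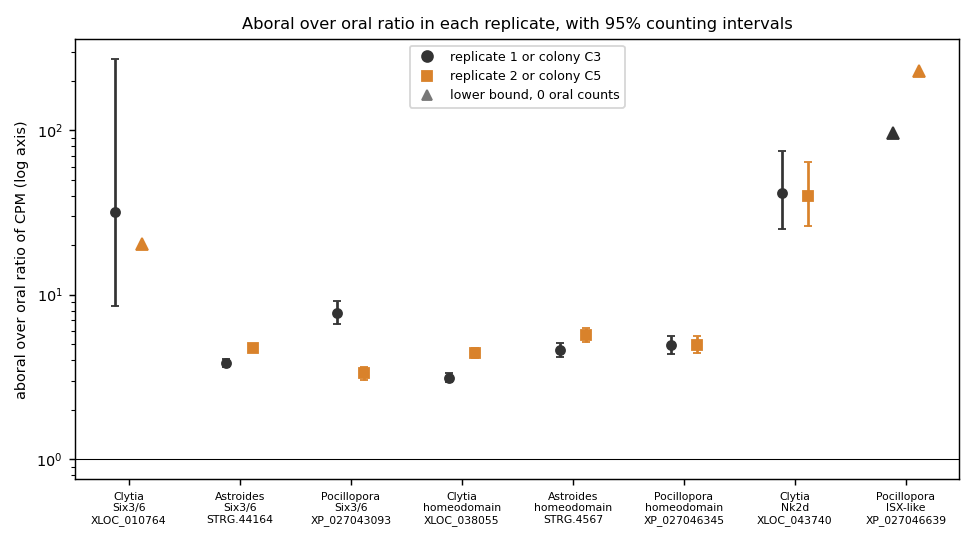
Ratio of aboral to oral CPM on a log axis for each of the 8 genes, circles for replicate 1 or colony C3 and squares for replicate 2 or colony C5, with 95% counting intervals as bars; triangles are lower bounds where the oral library had 0 counts. All ratios are above 1, and those of the 3 models called the aboral homeodomain gene lie between 3.12 and 5.69. The libraries of the 2 colonies part for Six3/6 of Pocillopora (7.76 in C3 and 3.32 in C5), where colony and pool of cut ends cannot be told apart.

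Nk2d had a steep profile in Clytia. XLOC_043740 had 609 and 822 counts (20.0 and 27.8 CPM) in aboral ends, 15 and 22 counts (0.478 and 0.697 CPM) in oral ends, and 389 and 344 counts (12.5 and 11.4 CPM) in uncut larvae. The groups stood apart, and both oral libraries were below 1 CPM. The log2 fold change was 5.34 ± 0.246 (SE, adjusted p = 2.01e-06), ranking 65 among the 15599 genes tested. The ratio was 41.8 in replicate 1 (counting interval 25.2 to 75.2) and 39.9 in replicate 2 (26.2 to 64.0), and these intervals overlapped.

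The Pocillopora gene listed as the ortholog of Nk2d, XP_027038905, did not have this profile. It had 12.5 CPM (C3) and 12.3 CPM (C5) in aboral ends, against 21.4 CPM (C3) and 17.2 CPM (C5) in oral ends. Both oral libraries were the higher ones, but the log2 fold change of -0.63 ± 0.180 (SE, adjusted p = 0.103) did not pass the threshold. The change of Nk2d in Clytia was larger by 5.97 ± 0.339 on the log2 scale (SE, adjusted p = 3.57e-05). This is 1 listed pair and does not cover other coral genes with NK names, which were looked up after their values were seen. In Astroides NKX2-5 and NKX3 were called higher aborally (log2 fold changes 1.37 and 1.73, adjusted p = 0.00378 and 0.00278). Nkx2-8-like of Astroides was called lower (-1.55, adjusted p = 0.0257). In Pocillopora none of these was called (0.782, 0.992 and 0.262).

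ISX-like was without a single oral count in both corals. XP_027046639 of Pocillopora had 360 counts (14.8 CPM) in C3 and 710 counts (29.9 CPM) in C5 aboral ends, against 0 counts in both oral libraries. The oral libraries with 0 counts allow up to 0.155 CPM in C3 and 0.131 CPM in C5. Set against a floor of 3 counts over both oral libraries, the aboral level was at least 314-fold higher, with an adjusted p of 0.00585 in edgeR and 0.0509 in DESeq2.

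The listed Astroides ortholog of ISX-like, STRG.15235, had the same pattern. It had 239 and 254 counts (9.03 and 9.44 CPM) in aboral ends, 0 and 0 counts in oral ends, and 105 and 70 counts (4.50 and 2.81 CPM) in uncut larvae. Aboral ends were at least 158-fold higher than oral ends against a floor of 3 counts over both oral libraries (adjusted p = 0.000788), and uncut larvae lay between. With no oral counts in either coral, the size of the change could not be compared between them. The study gives both ISX-like genes as markers of its apical cells, an aboral cell type of the coral larvae.

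**Figure D3:**
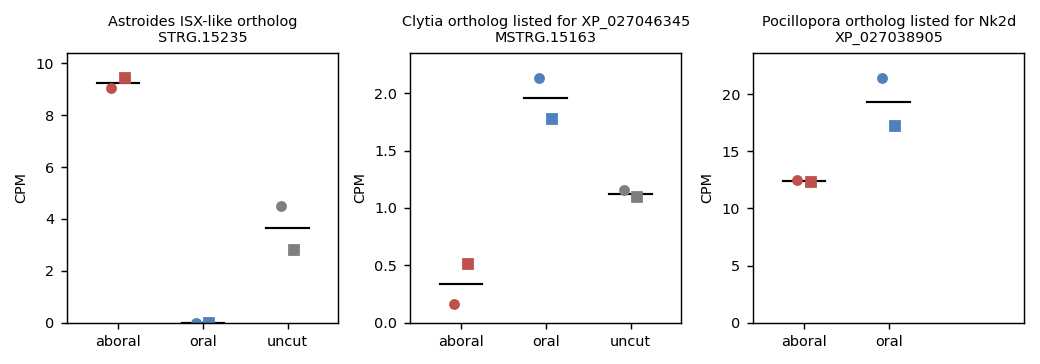
CPM of 3 genes that the study's lists pair with the 8 genes, in aboral, oral and uncut groups from left to right, circles for replicate 1 or colony C3, squares for replicate 2 or colony C5, and a line at the group mean. STRG.15235 of Astroides is at 0 in both oral libraries, whereas MSTRG.15163 of Clytia and XP_027038905 of Pocillopora are highest in the oral libraries, the change of XP_027038905 being short of the threshold.

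Without the colony term none of the Pocillopora calls held in edgeR. The adjusted p was then 0.373 for Six3/6, 0.135 for the aboral homeodomain gene and 0.252 for ISX-like, and 0 genes of the whole table were called higher aborally. At an unadjusted p under 0.05 that fit had 837 genes higher aborally, with all 3 genes among those past that limit, and DESeq2 without the colony term called 361 genes higher aborally and all 3 genes.

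Uncut larvae were used to place the whole animal between the ends. On a scale where the mean of oral ends is 0 and that of aboral ends is 1, uncut larvae lay at 0.477 for Six3/6 and 0.487 for Nk2d of Clytia, and at 0.511 and 0.525 for Six3/6 and the aboral homeodomain gene of Astroides. The aboral homeodomain gene of Clytia lay at 0.353, with 0.361 and 0.348 in the 2 replicates. The replicates were further apart for Nk2d, at 0.615 and 0.394, and for the ISX-like ortholog of Astroides, whose mean position was 0.395, at 0.498 and 0.297. For Six3/6 they were 0.456 and 0.498 in Clytia and 0.547 and 0.479 in Astroides, and for the aboral homeodomain gene of Astroides 0.577 and 0.478. These positions are a description of group means with no test. All 3 Clytia genes and both Astroides genes had aboral libraries above uncut and uncut above oral libraries without overlap, an order found in 16.6% of all tested Clytia genes and 5.98% of all tested Astroides genes.

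Against uncut larvae, the drop in oral ends was called for every one of these 5 genes. In Clytia 3 of 3 were lower in oral ends than in uncut larvae (5.78% of all genes), with Nk2d at a log2 difference of -4.33 ± 0.253 (SE, adjusted p = 2.18e-05) and the aboral homeodomain gene at -0.97 ± 0.126 (SE, adjusted p = 0.00247). For Six3/6 the adjusted p was 0.00222 over 2 oral and 59 uncut counts. In Astroides 2 of 2 were lower (0.946% of all genes), the aboral homeodomain gene by -1.66 ± 0.139 (SE, adjusted p = 0.00298) and Six3/6 by -1.41 ± 0.143 (SE, adjusted p = 0.00712). The call of Six3/6 was lost without uncut replicate 1 (adjusted p = 0.0709).

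Aboral ends were also set against uncut larvae, without a test of this rise against the drop in oral ends. In Clytia 2 of 3 genes were called higher (7.48% of all genes), the aboral homeodomain gene by 0.92 ± 0.124 (SE, adjusted p = 0.0035) and Nk2d by 1.00 ± 0.169 (SE, adjusted p = 0.00951), the last not without uncut replicate 2 (adjusted p = 0.0784). Six3/6 had 119 aboral and 59 uncut counts and missed the threshold (adjusted p = 0.0575). It passed with the replicate block (adjusted p = 0.0151), without oral replicate 1 (adjusted p = 0.0329) and without oral replicate 2 (adjusted p = 0.0335). In Astroides 0 of 2 were called (0.0941% of all genes, or 20), with log2 fold changes of 0.68 ± 0.140 for Six3/6 (SE, adjusted p = 0.127) and 0.69 ± 0.134 for the aboral homeodomain gene (SE, adjusted p = 0.111). Both had an unadjusted p under 0.05, and both were called with the replicate block (adjusted p = 0.0286 and 0.0269) and by DESeq2 (adjusted p = 0.00265 and 0.00319). Calls over all genes rose as well, to 268 of 21254 higher with the block and 240 of 26609 in DESeq2.

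The parent colonies of Pocillopora were compared at matched ends. None of the 3 genes was called between C5 and C3 in edgeR or DESeq2, while in edgeR 9.35% of all genes were higher and 9.89% lower in C5. ISX-like had 29.9 CPM in C5 and 14.8 CPM in C3 aboral ends, the only one of the 3 with an unadjusted p under 0.05 in edgeR (adjusted p = 0.0845, and 0.97 in DESeq2). In DESeq2 1 of the 3 genes was under that limit, and the lowest adjusted p was that of Six3/6 (0.102). Six3/6 was at 80.7 CPM in C5 and 73.8 CPM in C3 aboral ends, and at 24.3 CPM in C5 and 9.51 CPM in C3 oral ends (edgeR adjusted p = 0.165 over both ends). The aboral homeodomain gene was at 73.7 CPM in C5 and 72.0 CPM in C3 aboral ends (edgeR adjusted p = 0.885 over both ends).

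Many markers of aboral cell types moved with the 8 genes. The study picked out these cell types with the help of genes it called aboral on these libraries. The direction of their markers is therefore not independent evidence. Over all tested genes, 18.4% were called higher aborally in Clytia, 3.47% in Astroides and 3.82% in Pocillopora. In Clytia 18 of 18 neurosecretory markers were higher in aboral than in oral ends, with summed levels of 5071 to 5812 CPM in aboral ends, 32.5 to 37.6 CPM in oral ends and 2088 to 2650 CPM in uncut larvae. The markers of HFRIamide (14 of 14 tested), GLWamide (17 of 20) and QYFamide neurons (24 of 26) were higher as well. Markers of the Clytia cell cluster that the study names after Nk2d were not among the lists used. The study describes that cluster as heterogeneous, with some markers higher aborally and others without a lean to either end. In Astroides 25 of 28 apical cell markers, the ISX-like ortholog among them, were higher, with sums of 3995 to 5085 CPM in aboral ends, 826 to 920.5 CPM in oral ends and 2365 to 2820 CPM in uncut larvae. In Pocillopora 18 of 24 apical cell markers, ISX-like included, were higher, with sums of 6067 to 7393 CPM in aboral and 2532 to 3502 CPM in oral ends. Of the apical cell markers, 1 in Astroides and 2 in Pocillopora had 0 counts in oral ends.

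Neural and neurosecretory markers of the corals were called less evenly. Of the GLWamide neuron markers tested, 4 of 17 were higher aborally in Astroides and 5 of 16 in Pocillopora. Of the markers of the first neurosecretory type, 16 of 18 were higher in Astroides and 16 of 28 in Pocillopora, and of the second type 5 of 7 in Astroides and 5 of 24 in Pocillopora.

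Gland mucous markers mostly moved the same way, with 31 of 38 higher in Astroides and 32 of 41 in Pocillopora, where their aboral sum spread from 4692 to 10370 CPM against 1191 to 2304 CPM in oral ends. In Clytia 6 of 7 were higher and 1 was lower aborally. The 3 epidermal markers summed to 983.8 to 999 CPM in aboral and 1002 to 1271 CPM in oral ends of Astroides, with 1 called lower aborally, and to 311.3 to 386.9 CPM in aboral and 221.9 to 405.2 CPM in oral ends of Pocillopora, with 0 called by edgeR or DESeq2 and 0 at an unadjusted p under 0.05 in edgeR. The 3 gastroderm markers were all lower in aboral than in oral ends of Pocillopora (1769 to 2181 against 4119 to 4418 CPM), and summed to 1017 to 1133 CPM in aboral and 1339 to 1406 CPM in oral ends of Astroides, with 0 called by edgeR or DESeq2 and 1 at an unadjusted p under 0.05 in edgeR. Of the 2 digestive filament markers, 2 were lower aborally in Astroides and 1 in Pocillopora. Of the 3 cnidocyte markers, 1 was higher aborally in Astroides and 0 in Pocillopora. The neural, secretory and specialized epidermis markers had 0 calls by edgeR in both corals. The part of these cell types in the change of the 8 genes was not tested.

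As a family, homeodomain genes of the study's lists did not share the aboral direction. Of 16 Clytia genes tested, 4 were higher and 7 lower in aboral than in oral ends, with a median log2 fold change of -0.21 against -0.01 over all genes. In Astroides 10 of 37 were higher and 21 lower, with a median of -1.55 against 0.00 over all genes. In Pocillopora 6 of 35 were higher and 17 lower, with a median of -0.895 against -0.03. Over all genes tested, 14.8% were lower aborally in Clytia, 3.51% in Astroides and 4.22% in Pocillopora. Setting genes at 0 oral counts to their bounds could not move the medians, since these genes stayed above them. Many listed genes had been called at an end by the study on these libraries, so that neither their share of calls nor these medians are independent evidence. Among the other listed genes, the median was -0.296 in Clytia, with 0 higher and 5 lower of 10 tested. It was -0.17 in Astroides (4 higher and 5 lower of 15) and 0.277 in Pocillopora (3 higher and 5 lower of 20).

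Other genes of the family were lower in aboral than in oral ends. In Clytia XLOC_010754 had 3.32 and 2.03 CPM in aboral ends, against 47.8 and 46.4 CPM in oral ends, and XLOC_013191 had 2.04 and 1.73 CPM against 30.8 and 28.3 CPM in oral ends. In Astroides STRG.26580 had 3 aboral and 565 oral counts, an oral level 196 times the aboral one (counting interval 66.6 to 952), and STRG.26576 had 2 aboral and 366 oral counts (190 times, 52.3 to 1580). In Pocillopora XP_027038872 had 4 aboral and 162 oral counts (46.0 times, 17.6 to 171), and XP_027053907 changed by -5.52 on the log2 scale ± 0.341 (SE, adjusted p = 0.00555). These oral genes carry only a homeodomain in the lists and have no further name there.

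On the aboral side, the 2 highest called changes of each species included STRG.15235 of Astroides, the ISX-like ortholog described above, STRG.20735 of Astroides, with homeobox KN and homeodomain annotations, and XP_027036745 of Pocillopora, with a homeodomain and an OAR motif. STRG.20735 had 5.59 and 7.73 CPM in aboral ends, against 0.464 and 0.217 CPM in oral ends (log2 fold change 4.29 ± 0.411, SE, adjusted p = 0.00198). XP_027036745 had 272.7 CPM (C3) and 192.7 CPM (C5) in aboral ends, against 28.1 CPM (C3) and 40.3 CPM (C5) in oral ends (2.76 ± 0.272, SE, adjusted p = 0.0123). Neither gene overlapped between the ends. In Clytia, Six3/6 and Nk2d had the highest changes of the family, followed by UNC4 (XLOC_039146, 3.27 ± 0.168, SE, adjusted p = 3.76e-06), a gene named after its values were seen.

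**Figure D4:**
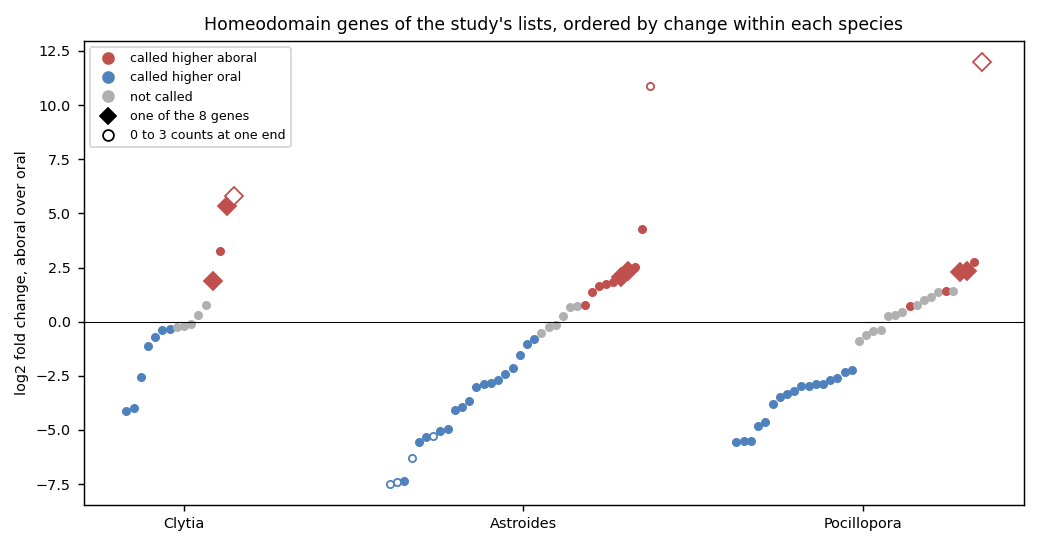
Fitted log2 fold change of aboral over oral ends for each tested homeodomain gene of the study's lists, ordered by change within Clytia, Astroides and Pocillopora; diamonds are the 8 genes, red and blue mark calls of higher aboral and higher oral level, grey is not called, and open symbols had 0 to 3 counts at one end, so that their height depends on the prior count of the fit. Calls of lower aboral level outnumber those of higher aboral level, with 7 against 4 in Clytia, 21 against 10 in Astroides and 17 against 6 in Pocillopora.

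Genes with the most similar profile were sought among annotated genes of at least 1 CPM, by the root mean square difference of log2(CPM + 1) after centring each gene over the libraries of its species. The measure is a description with no test, and lower values mean more alike. Annotations came from the study's lists, which include genes it called at an end on these libraries. Near aboral genes, and their distance from the median, are therefore not independent evidence. For Nk2d the 3 nearest of 1641 Clytia genes, each at 0.17, were the neuropeptide precursors pp8-RPRPamide (XLOC_008764) and pp14-FLFamide (XLOC_004021) and the secreted protein gene PF1_5 (XLOC_028509), where the median of all genes was 1.75. In the same order they had 12.6, 20.1 and 16.7 CPM in aboral and 0.0319, 0.0795 and 0.0477 CPM in oral ends. All 3 were steeper than Nk2d, at 23.91 against 0.5875 CPM, so that their likeness depends on the added 1. For Six3/6 of Astroides, the third nearest of 295 genes was the aboral homeodomain gene STRG.4567 itself, at 0.10 against a median of 0.851 over 6 libraries. Its 2 nearer genes, STRG.4900 with an SH3 domain (0.083) and the receptor STRG.7124 (0.088), were at 3.31 and 4.61 CPM in aboral ends, where the added 1 flattens the profile.

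For ISX-like of Pocillopora, the nearest of 249 genes over 4 libraries were XP_027043835 with a von Willebrand factor type A domain (0.18), Dickkopf (XP_027048253, 0.24), a secreted inhibitor of Wnt signalling, and a flavin-binding monooxygenase-like gene (XP_027057557, 0.27), against a median of 1.64. In the same order they had 22.2, 24.5 and 160 CPM in aboral and 0.117, 0.0477 and 4 CPM in oral ends. ISX-like had 0 oral counts, so that their likeness depends on the added 1, most of all for the monooxygenase-like gene. For Six3/6 of Pocillopora the nearest were XP_027043599 with a WSC domain (0.13), XP_027056905, a lipoma HMGIC fusion partner-like gene (0.13), and the subtilase family gene XP_027040049 (0.18). For the aboral homeodomain gene of Pocillopora they were the rhodopsin-family receptor XP_027045018 (0.081), the helix-loop-helix gene XP_027058337 (0.11) and XP_027048838, a receptor of the secretin family (0.13). The added 1 bears on XP_027058337, at 4.44 CPM in aboral against 0.0219 CPM in oral ends, and on XP_027045018, at 8.28 against 0.843 CPM, both steeper than the homeodomain gene.

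For the aboral homeodomain gene of Astroides the nearest were a lustrin repeat gene (STRG.24019, 0.073), an ankyrin repeat gene (STRG.26076, 0.079) and an iodothyronine deiodinase gene (STRG.9820, 0.084). The last 2 were low and steeper than the homeodomain gene, at 4.18 CPM in aboral against 0.0783 CPM in oral ends and at 4.48 against 0.139 CPM, so that their likeness depends on the added 1. For that of Clytia they were XLOC_015176 with a domain of unknown function (0.067), the low-density lipoprotein receptor repeat gene XLOC_006378 (0.069) and the pectin acetylesterase XLOC_044658 (0.074). For Six3/6 of Clytia, at about 2 CPM in aboral ends, the added 1 flattened the profile, and the nearest genes, a fascin domain gene (XLOC_042082, 0.041), a WD repeat gene (XLOC_038106, 0.049) and the receptor MSTRG.9008 (0.052), had milder changes than its counts show.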

How the data were processed

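Each library was deposited as a table of raw counts for its gene models, which the authors obtained with STAR and its option for counting genes. The strand setting is not given in the sources used here, so that overlapping antisense genes cannot be told apart. None of the file identifiers matched the reference gene table (0 matches), and names and ortholog pairs came from the study's lists. The tests used edgeR 4.0.16 under R 4.3.3: filterByExpr by group, TMM factors, estimateDisp, and glmQLFit in legacy mode with glmQLFTest, two-sided, with a Benjamini-Hochberg adjusted p under 0.05 as threshold. All 6 libraries of Clytia, and all 6 of Astroides, entered 1 fit per species, and the 4 of Pocillopora were fitted with the parent colony as a term. Residual degrees of freedom were 3, 3 and 1. DESeq2 1.42.0 was an alternative.

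Groups are named by the labels. Replicates are separate pools that the study calls biological replicates, and in Pocillopora they are larvae of the 2 colonies. Colony differences at the 2 ends of Pocillopora correlated at 0.827 across genes, which are not independent replicates. Same-numbered Clytia and Astroides libraries were taken as paired because the methods state pool sizes of all groups by biological replicate. Their replicate differences correlated at 0.548 (aboral with oral), 0.367 (aboral with uncut) and 0.397 (oral with uncut) for Clytia, and in the same order at 0.716, 0.276 and 0.257 for Astroides. The main fits of Clytia and Astroides left this pairing out, and the replicate block was run as an alternative. Blocked values are given where they change a call.

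Counting intervals are exact and conditional on the summed count, at 95%, and groups at 0 were set to a floor of 3 counts. The 8 genes, the lists and the rule for further named genes were chosen with earlier results of these data known. That rule took 3 listed orthologs, in each species the 2 highest and 2 lowest called log2 fold changes among listed homeodomain genes, and the 3 nearest profiles per gene. Fits were tested on simulated data.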

Additional observations from a re-analysis of the deposited data

Results flagged for a closer look

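The aboral against oral change of 4 ortholog pairs differed between species by the test of the species by end interaction in edgeR. For Six3/6 the change was larger in Clytia (XLOC_010764) than in Astroides (STRG.44164), with an adjusted p of 0.0041, and than in Pocillopora (XP_027043093), with an adjusted p of 0.0461; both rest on 2 oral counts of Clytia. For Nk2d the change of Clytia XLOC_043740 exceeded that of Pocillopora XP_027038905 (adjusted p = 3.57e-05). For the aboral homeodomain gene XP_027046345 of Pocillopora, the listed Clytia ortholog MSTRG.15163 changed in the opposite direction (adjusted p = 0.00014). In all 4 pairs species and dissection cannot be told apart, since Clytia and coral larvae differ in size and were cut with different tools. Groups of 2 libraries were too small for a search for outlying samples.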

How the results depend on the processing

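The direction of each of the 8 genes between aboral and oral ends was the same under all alternatives run: the replicate block, aboral and oral libraries alone, DESeq2, RLE size factors, no filter on low counts, and leaving out each library, except that no value without a library was computed for ISX-like of Pocillopora. The calls of the 5 Clytia and Astroides genes held under all of them. Without the colony term in edgeR, Pocillopora had 0 of 3 genes called, with a log2 fold change of 2.19 for Six3/6 (adjusted p = 0.373) and 2.31 for the aboral homeodomain gene (adjusted p = 0.135), and an adjusted p of 0.252 for ISX-like; 0 genes of the whole table were then called higher aborally. In DESeq2 the adjusted p of ISX-like was 0.0509. With the replicate block, Astroides had 1312 genes higher aborally, against 738, and leaving out 1 library gave 289 to 558. Leaving out each Pocillopora library in turn keeps 1 whole colony and gives a value with no test, 1.73 to 2.96 for Six3/6.

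Against uncut larvae, aboral ends of Astroides had log2 fold changes of 0.678 for Six3/6 and 0.698 for the aboral homeodomain gene with the replicate block, and 0.688 and 0.708 in DESeq2, all 4 past the threshold. For Six3/6 of Clytia the adjusted p was 0.0151 with the block and 0.0329 to 0.217 with 1 library left out. Leaving out 1 library gave log2 fold changes of 0.743 to 1.22 for Nk2d (adjusted p = 0.0784 without uncut replicate 2), and of -1.53 to -1.28 for oral ends against uncut larvae for Six3/6 of Astroides (adjusted p = 0.0709 without uncut replicate 1). For the species by end interaction the replicate block gave an adjusted p of 0.0443 for the aboral homeodomain gene of Clytia and Astroides, and 0.0913 for Six3/6 of Clytia and Pocillopora. The block changed no other call. The cause of these changes was not tested. Precision is limited by 2 libraries per group and, for Six3/6 of Clytia, by its low counts.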
